A study of Mus musculus with 4 samples.

Results

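The cytosolic ribosomal protein genes were followed in 4 single-cell libraries of mouse blood stem and progenitor cells. The genes were chosen by symbol: names made of Rpl or Rps and a number, with or without a letter, together with Rpsa, Rplp0, Rplp1 and Rplp2, and without pseudogene names. A level of at least 20 CPM in at least 1 library was required, where CPM is a gene's UMIs per 1000000 gene UMIs of the library and a UMI (unique molecular identifier) marks 1 captured mRNA molecule. Of 83 matching symbols among 32285 genes, 80 passed, 48 of the large and 32 of the small ribosomal subunit. All 80 were over the minimum in every library. The 3 left out were Rpl39l at 1.71 CPM in the control, Rpl3l at 0.21 and Rpl10l with 0 UMIs in every library, which allows up to 0.0251 CPM in the control and 0.0591 CPM in the shallowest library (3 UMIs of the total). Nearest inside was Rpl7l1, at 120 CPM in the control and 81.4 in the library in which it was lowest. Fau and Rack1 also encode ribosome components but have other names, and are described with the pathway.

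The cells were donor-derived (CD45.2+), lineage-negative, Sca1-positive and Kit-positive bone marrow cells of mice, the LSK gate of blood stem and multipotent progenitor cells, taken 10 weeks after transplantation. There was 1 library for each genotype: control, Mll3 deleted, Mll4 deleted and Mll3/4 deleted. Mll3 and Mll4 are the histone methyltransferases encoded by Kmt2c and Kmt2d. The Cre driver, the number of donors and the age of the mice were not given in the sources used here. Cells had antibody tags for 6 surface proteins, of which CD150, CD48 and CD135 were used to gate 1 stem cell class and 4 classes of multipotent progenitor. The MPP4 gate was positive for CD135 and negative for CD150, and the rest were negative for CD135. Of these, the HSC gate was positive for CD150 alone, the MPP3 gate for CD48 alone, the MPP2 gate for both and the MPP1 gate for neither. Cells positive for both CD150 and CD135 fell in none of these gates, and were 1642 (34.6%) of the Mll3/4-labelled library, 127 of the control, 223 of the Mll3-labelled and 25 of the Mll4-labelled library, too few in the last to be compared.

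With 1 library per genotype the spread between animals of a genotype is not known, no test was run, and all intervals cover counting error only (exact, 95%). Libraries held 4748 to 7274 cells that passed the filter and 50792614 to 120700343 gene UMIs. Median UMIs per cell were 14454 in the control library, 15381 with the Mll3 label, 21400 with the Mll4 label and 8920 with the Mll3/4 label. The libraries are named by their labels, because Kmt2d was at 24.6, 21.6, 22.6 and 25.4 CPM in that order and so did not separate them, whereas Kmt2c was at 68.9, 35.3, 61.3 and 42.3. Their cells also differed in kind. In the Mll3/4-labelled library 4720 cells (99.4%) had at least 0.2% of their UMIs from 8 B-lineage markers, against 16 in the control library, and the summed level of 8 stem cell markers was 61.5 CPM against 664. The B-lineage markers summed to 52.6, 280, 57.0 and 10748 CPM in the 4 libraries, with none of the 8 at 0 in any. In the Mll4-labelled library 1706 cells (35.6%) were high in markers of mast cells, macrophages, antibody-secreting cells, T or innate lymphoid cells or stroma, against 70 in the control. The 6 mast cell markers summed to 16.0, 8.60, 1577 and 1.75 CPM, with the tryptases Tpsb2 and Tpsab1 at 0 in all but the Mll4-labelled library. Results are therefore given with and without the cells high in markers of these other types, and in cells of like surface phenotype. That set does not include B-lineage-marker-high cells, and held 11 cells of the Mll3/4-labelled library. The gates did not separate off the B-lineage transcripts of that library either. Its B-lineage marker Cd79a was at 3135 CPM in the MPP2 gate and 3584 in the HSC gate. Each pair of libraries shared 7 to 14 cell barcodes, and 61 barcodes occurred in more than 1 library.

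Most ribosomal proteins are needed in equal numbers in every ribosome, and their mRNAs are among the most abundant of a growing cell. These mRNAs typically begin with a C followed by a run of pyrimidines, the terminal oligopyrimidine (TOP) motif, through which mTORC1 and the RNA-binding protein Larp1 set their translation, and Myc drives the transcription of many of them together with the factors that assemble ribosomes. In blood, stem cells translate little, and partial loss of 1 ribosomal protein such as RPS19 causes Diamond-Blackfan anaemia, a failure of red cell production. Rpl5 and Rpl11 with the 5S RNA can bind Mdm2 and so stabilise p53.

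RefSeq start-site sequences (GRCm38.p6, 250 bases before to 50 after an annotated start, first listed start of each gene) were found for 60 of the 80 genes. A C at the annotated first base followed by at least 4 more C or T was present in 12 of the 60 (20%), against 2.49% of 27025 promoters. The letters CCGGAAG, the core of an Ets-family site, were found on either strand in 24 of the 60 (40.0%), against 9.12% of all promoters. AAGATGGC, the core of a Yy1 site, was in 5 (8.33%, against 2.88%), and TATAAA in 6 (10.0%, against 14.2%). These are matches of letters in a fixed window and not measured sites. Shown from 10 bases before to 20 after the annotated start are genes from both ends of the library ratios below, with runs of 5 or more pyrimidines that open with C in capitals, which can go on beyond the bases shown.
Rpl38 (chr11:114668570-114668599, plus strand): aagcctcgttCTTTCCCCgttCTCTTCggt
Rps21 (chr2:180257369-180257398, plus strand): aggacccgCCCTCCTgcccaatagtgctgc
Rps27 (chr3:90213629-90213658, minus strand): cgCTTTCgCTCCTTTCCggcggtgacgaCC
Rps15a (chr7:118116128-118116157, minus strand): TTTCTgccatCTTCCCTCgccggtgagtga
Rps6 (chr4:86857348-86857377, minus strand): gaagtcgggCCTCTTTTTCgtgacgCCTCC
Rpl15 (chr14:18270967-18270996, minus strand): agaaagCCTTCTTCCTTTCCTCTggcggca
Rps19 (chr7:24884582-24884611, plus strand): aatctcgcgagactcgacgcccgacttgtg
Rps28 (chr17:33824543-33824572, minus strand): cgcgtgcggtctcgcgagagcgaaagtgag
The first 6 carry the pyrimidine start, and the annotated starts of Rps19 and Rps28 do not. Genes with that start were found at both ends of the ratios. In the Mll4-labelled library Rpl38 and Rps21 were at 1.34 and 1.12 (log2 ratio to the control), and Rps6 and Rpl15 were both at -0.81.

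Ribosomal protein mRNAs made up more than 25% of all mRNA molecules counted in every library. They took 29.7% of gene UMIs in the control library, 25.9% with the Mll3 label, 28.0% with the Mll4 label and 27.0% with the Mll3/4 label. The large-to-small subunit ratio of summed UMIs stayed between 1.14 and 1.21. As a log2 ratio to the control the summed level was -0.20 in the Mll3-labelled library (interval -0.201 to -0.200), -0.09 with the Mll4 label and -0.14 with the Mll3/4 label. The value of the Mll4-labelled library changed sign with the scaling, to 0.03 with TMM factors, and was 0.01 without the cells high in markers of other types and -0.43 among cells of 5000 to 20000 UMIs, whereas the other 2 libraries stayed below 0 in every alternative tried. Per cell, the median share was 30.6% in the control, 26.6% with the Mll3 label, 27.7% with the Mll4 label and 26.3% with the Mll3/4 label. Its 5th percentile was 24.0%, 20.5%, 10.1% and 15.4% in that order, lowest in the Mll4-labelled library.

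In cells of like surface phenotype the share in the Mll3-labelled library was below the control in the 5 gates named, with log2 ratios from -0.27 in the MPP4 gate to -0.18 in the MPP2 gate. The Mll3/4-labelled library was also below the control in all 5, from -0.23 in the HSC gate to -0.06 in the MPP2 gate. The Mll4-labelled library was above the control in the HSC gate (32.5% against 30.7%, log2 ratio 0.09), the MPP1 gate (33.4% against 30.7%, 0.12) and the MPP2 gate (29.5% against 27.8%, 0.08). It was below in the MPP3 gate (27.5% against 29.4%, -0.10) and the MPP4 gate (23.9% against 29.7%, -0.31). Without cells high in markers of other types the Mll4-labelled share was 29.5% in the MPP3 gate and 28.6% in the MPP4 gate, against 29.5% and 30.1% in the control. The MPP2 gate of the Mll3/4-labelled library held 102 cells, the fewest of any gate given.

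**Figure D1:**
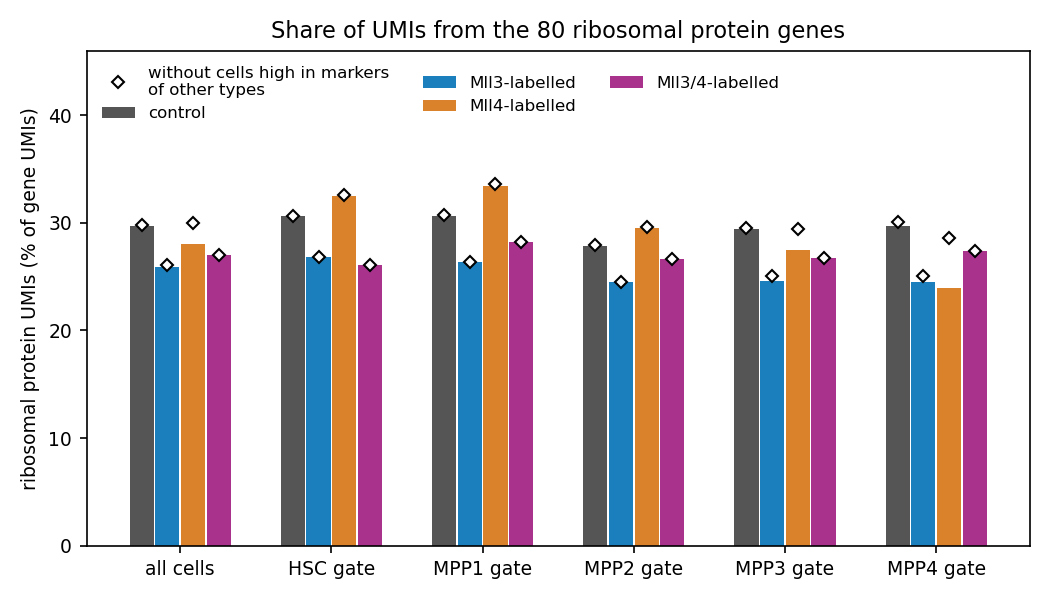
Share of gene UMIs from the 80 ribosomal protein genes (vertical axis, percent, from 0) in all cells and in 5 surface gates, with 1 bar per library. Diamonds give the share without cells high in markers of other types, and they differ visibly from the bars in the Mll4-labelled library for all cells, the MPP3 gate and the MPP4 gate.

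Single genes differed from the control by more than the sum did. A gene was counted as higher or lower when its level differed from the control at least 1.5-fold. Lower in the Mll3-labelled library were 30 of the 80 genes, and 0 were higher, while 4.23% of 7264 genes over the minimum were lower and 3.92% higher. With the Mll4 label 22 were lower and 12 higher, beside 15.4% and 13.4% of all genes. With the Mll3/4 label 4 were lower (among them Rps6, Rpl14 and Rps2) and 2 higher (Rps19 and Rps27l), beside 22.7% and 14.1% of all genes, so fewer of these genes passed the fold than of all genes in either direction. The median log2 ratio of the 80 genes was -0.48, -0.18 and -0.14 in the 3 libraries, and that of all genes 0.10, -0.12 and -0.11. TMM scaling moved all ratios by -0.11, 0.12 and 0.11, and then 40 were lower in the Mll3-labelled library, 11 lower and 18 higher in the Mll4-labelled library, and 1 lower and 2 higher in the Mll3/4-labelled library. Without the cells high in markers of other types 14 were lower and 18 higher in the Mll4-labelled library. Among the highest levels in the control were those of Rpl13 at 9492 CPM, Rps24 at 7324, Rps3a1 at 6936 and Rpsa at 6804.

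The genes at the 2 ends of each comparison were as follows. Rps28 (chromosome 17, 33819027 to 33824562, GRCm38, minus strand), a small subunit protein, was counted at 1725 CPM in the control, 1338 with the Mll3 label, 5968 with the Mll4 label and 1627 with the Mll3/4 label. Rps29 (chromosome 12, 69157722 to 69159186, minus strand), a zinc-binding small subunit protein, was at 3548, 2663, 12042 and 3195. Both stood at more than 3 times the control in the Mll4-labelled library alone, with log2 ratios of 1.79 and 1.76. Next in that library were Rpl38 at 1.34, Rps21 at 1.12 and Rpl41 at 1.12. The lowest 5 there were Rps7 at -0.91, Rpl9 at -0.90, Rps3a1 at -0.82, Rpl15 at -0.81 and Rpl7 at -0.81.

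Among the lowest ratios with the Mll3 label, which were close together, were Rps15a at -0.75, Rpl30 at -0.72, Rpl35a at -0.72 and Rpl31 at -0.72. The highest were Rplp0 at 0.46, Rpl3 at 0.46, Rps2 at 0.44, Rpl5 at 0.34 and Rpsa at 0.34. Rps2 (chromosome 17, 24718116 to 24721929, plus strand) was at 5666 CPM in the control, 7674 with the Mll3 label, 3642 with the Mll4 label and 3742 with the Mll3/4 label. In the Mll3/4-labelled library the highest were Rps19 at 1.10, Rps27l at 0.63, Rps27 at 0.35, Rps15a at 0.33 and Rps26 at 0.28, and among the lowest were Rps6 at -0.70, Rpl14 at -0.65, Rps2 at -0.60 and Rpl5 at -0.57. Rps6, whose protein is the phosphorylation target of the S6 kinases, was at 3841, 4538, 2189 and 2362 CPM in the 4 libraries. Rps6 and Rps2 were thus above the control in the Mll3-labelled library and below it in the other 2. The 3 comparisons share the control library, so their ratios are not independent.

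The position of a gene in these orders went with its length. Across the 80 genes the rank correlation of log2 ratio and coding length was 0.78 with the Mll3 label, -0.83 with the Mll4 label and -0.75 with the Mll3/4 label, given as a description, since all points of a comparison share both libraries. Genes with under 450 coding bases had median log2 ratios of -0.66, 0.34 and 0.02, and those of at least 600 bases 0.21, -0.64 and -0.44. As shares, without a ratio to the control, the 10 genes under 300 coding bases took 2.37% of UMIs in the control, 1.68% with the Mll3 label, 5.60% with the Mll4 label and 2.39% with the Mll3/4 label. The 20 genes of 600 to 900 bases took 9.03%, 10.2%, 6.19% and 6.94%. The correlation ranged from 0.76 to 0.78 over the 5 gates for the Mll3-labelled, from -0.85 to -0.83 for the Mll4-labelled and from -0.76 to -0.71 for the Mll3/4-labelled library. It was 0.78, -0.83 and -0.75 without the cells high in markers of other types.

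**Figure D2:**
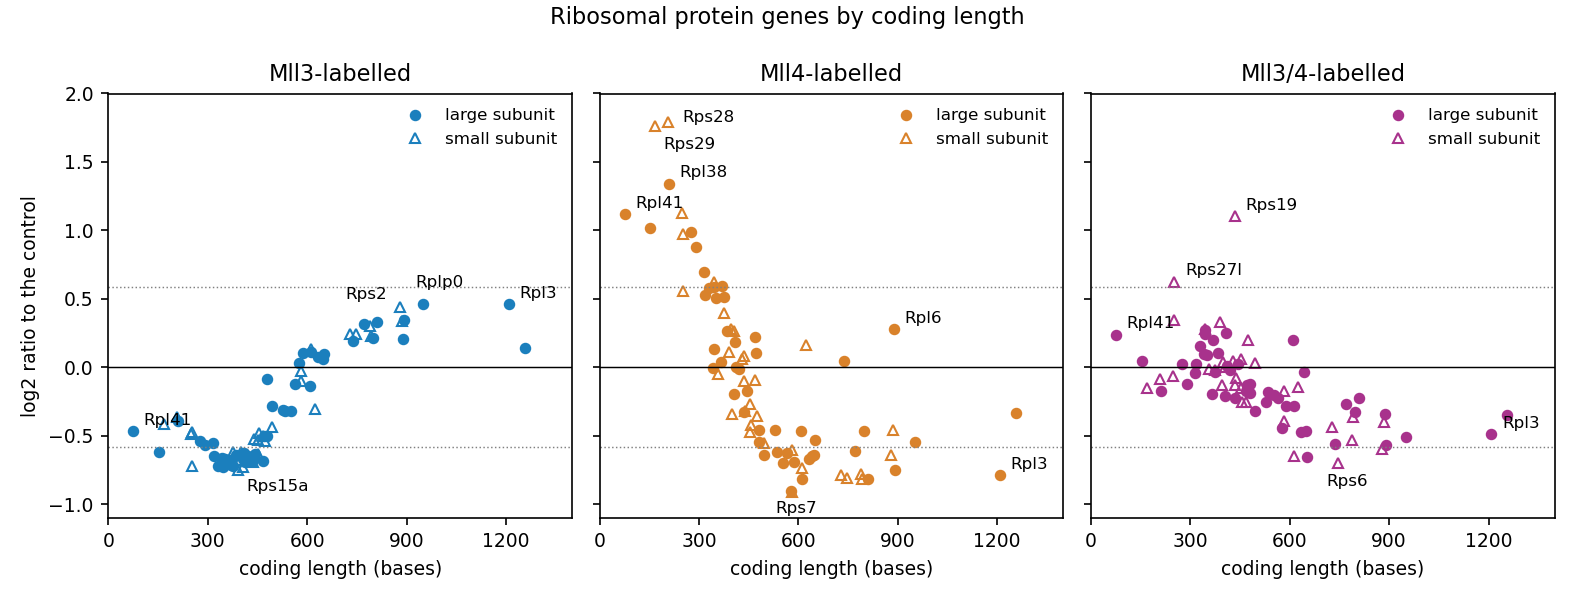
Log2 ratio to the control (vertical axis) against coding length in bases (horizontal axis) for the 80 ribosomal protein genes in 3 libraries, with filled circles for the large and open triangles for the small subunit. Dotted lines mark 1.5-fold. Short genes lie low and long genes high in the Mll3-labelled library and the reverse in the Mll4-labelled library, and Rps19 stands at 1.10 in the Mll3/4-labelled library.

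Other genes were compared by both coding and transcript length, and the result depended on the measure and on the range of lengths. Over 7033 other genes the rank correlations with coding length were -0.11, 0.13 and 0.09 with the Mll3, Mll4 and Mll3/4 labels. These were opposite in sign to those of the 80 genes, which are all under 1500 coding bases, whereas many other genes are longer. The 851 other genes under 500 coding bases had median log2 ratios of -0.02, -0.18 and -0.03. The 687 of 800 to 1000 bases were at 0.19, -0.25 and -0.29, a move in the direction of the 80 genes. The 1549 of 1500 to 2500 bases were at 0.09, -0.03 and -0.07, a move back. By transcript length the 110 shortest other genes, under 500 bases, were at -0.60, 0.74 and 0.44, and the 893 genes of 1000 to 1500 bases at 0.21, -0.35 and -0.28. The 1233 genes of at least 5000 bases were at 0.05, -0.06 and 0.07, so the medians did not run one way over all lengths, and over 7168 other genes the rank correlations with transcript length were -0.14, 0.14 and 0.14. For the 80 genes the correlations with transcript length were 0.44, -0.54 and -0.37, weaker than with coding length. The part of length in the ratios was not tested. Between cells of 1 library, the rank correlation with coding length lay between -0.22 and 0.25 in 18 of 20 contrasts described below. It was -0.45 and -0.33 for the HSC gate against the MPP3 and MPP4 gates within the Mll3/4-labelled library.

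**Figure D3:**
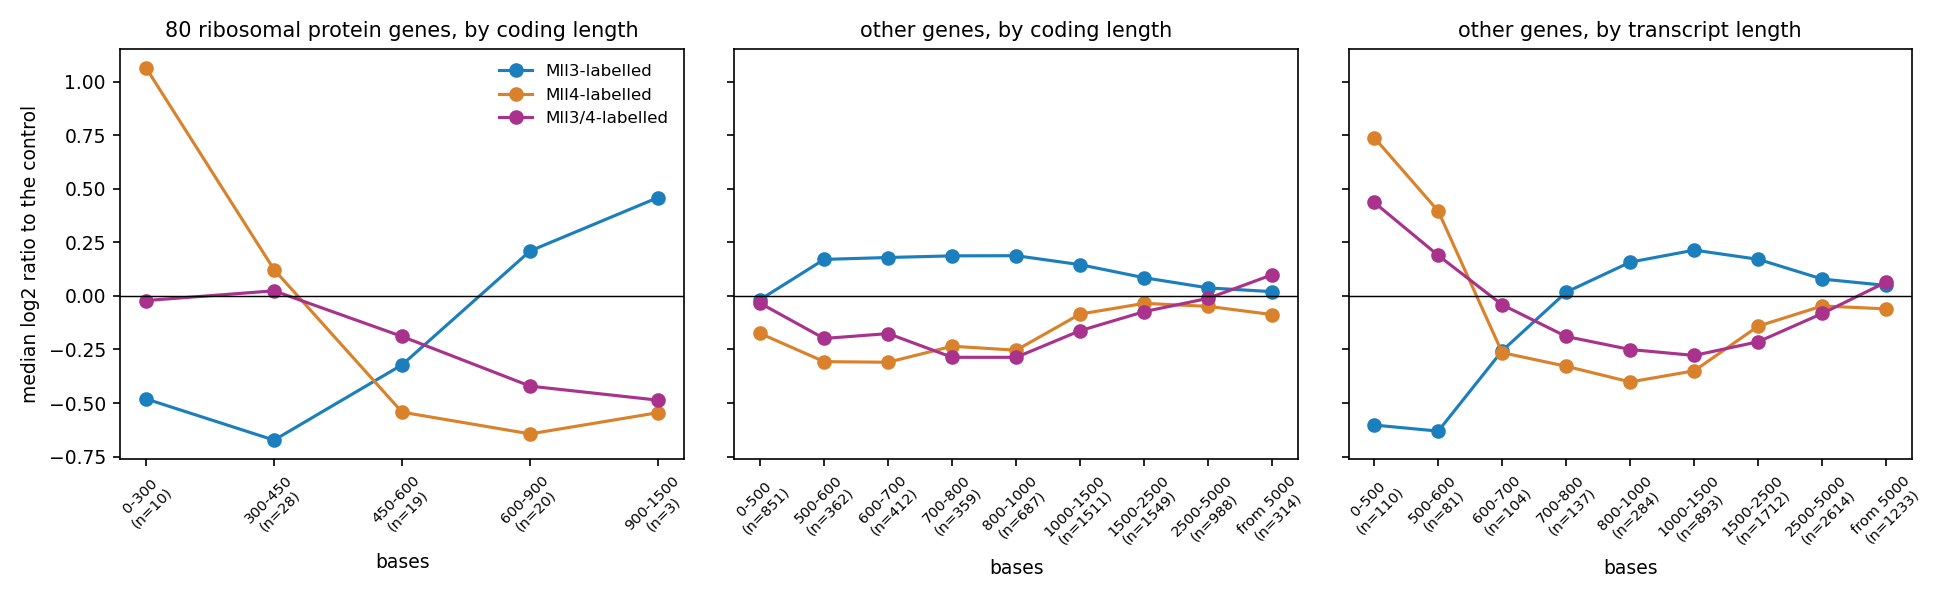
Median log2 ratio to the control (vertical axis) by length in bases (horizontal axis) for the 80 ribosomal protein genes (left, coding length) and for the other genes over the minimum by coding length (middle) and by transcript length (right), with the number of genes under each bin and 1 line per library. The genes under 300 bases on the left and under 500 bases on the right have the highest medians with the Mll4 label, 1.07 and 0.74, whereas the shortest bin in the middle is at -0.18 with that label.

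Because of this order, each gene was also set against the median of the 10 ribosomal protein genes nearest to it in coding length. With the Mll3/4 label Rps19 stood 1.15 above its like-length genes, Rps27l 0.68 and Rpl13a 0.54 (log2). With the Mll4 label Rpl6 stood 0.97 above, Rps28 0.81, Rpl7l1 0.76 and Rps29 0.76, and Rps24 and Rplp1 stood below, at -0.57 and -0.56. In the Mll3-labelled library the departures were smaller, up to 0.42 for Rpl29. Rpl6 is a long gene (888 coding bases) that did not follow the length order in the Mll4-labelled library. It was at 3535 CPM in the control, 4077 with the Mll3 label, 4289 with the Mll4 label and 2786 with the Mll3/4 label. These genes were picked for their values and the departures are descriptions.

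Rps19 (chromosome 7, 24884371 to 24889806, GRCm38, plus strand), a small subunit protein needed for 18S rRNA maturation, showed the highest ratio in the Mll3/4-labelled library. Its level was 4489 CPM in the control (interval 4477 to 4501), 2870 with the Mll3 label, 4186 with the Mll4 label and 9648 with the Mll3/4 label (9621 to 9675). The last library was at a log2 ratio of 1.10, with a range of 1.04 to 1.22 over the alternatives. The Mll3-labelled library was below the control in every alternative. The Mll4-labelled library was at -0.10, with a range of -0.46 to 0.02 over the alternatives, the upper end with TMM scaling. Under the Mll3/4 label Rps19 was high in each gate, from 9343 in the MPP2 gate to 10191 in the HSC gate, against 4233 to 4621 in the control. In the annotation Rps19 is followed on the same strand, 7575 bases on, by Cd79a, a B-cell receptor component, and then by Arhgef1. Cd79a was at 7.24, 74.3, 12.1 and 3340 CPM in the 4 libraries, and Arhgef1 at 60.8, 57.9, 84.2 and 137. The next expressed gene, Rabac1, was at 197, 217, 170 and 166. Cd79a was high in each gate of the Mll3/4-labelled library too, from 3135 to 3584 in the 5 gates. In the 169 B-lineage-marker-high cells of the Mll3-labelled library Rps19 was at 2759 CPM against 2900 in the other cells, a log2 ratio of -0.07 (-0.10 to -0.04). Whether the levels of Rps19 and its neighbours are linked was not tested.

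**Figure D4:**
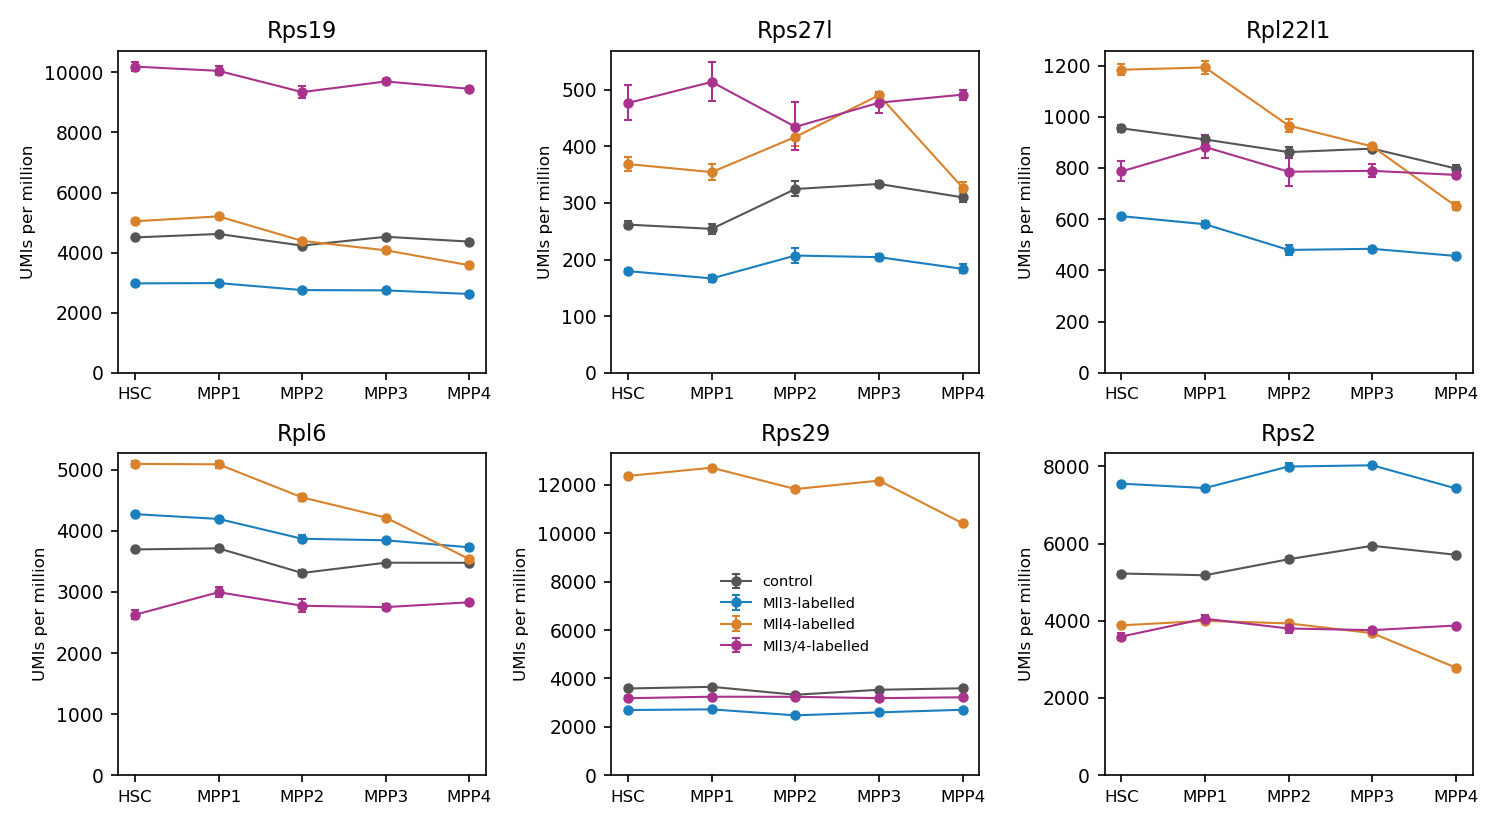
CPM (vertical axes, from 0) of 6 ribosomal protein genes in 5 surface gates of the 4 libraries, with exact 95% Poisson intervals that cover counting error only. Rps19 is high in every gate of the Mll3/4-labelled library, and Rps29 in every gate of the Mll4-labelled library.

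Several members have paralogs. Rps27l, a paralog of Rps27 known as a p53 target, was at 308 CPM in the control, 187 with the Mll3 label, 454 with the Mll4 label and 475 with the Mll3/4 label. Rps27 was at 2205, 1591, 4330 and 2808. Both were below the control in the Mll3-labelled and above it in the other libraries, but Rps27l was at -0.39 in the Mll4-labelled library among cells of 5000 to 20000 UMIs. In the Mll3/4-labelled library Rps27l was past 1.5-fold, at 0.63, and under it, at 0.50, among cells low in G2M transcripts. Rpl22 was at 1718, 1103, 2066 and 1846 CPM, and Rpl22l1, whose mRNA Rpl22 is known to restrain, at 884, 553, 907 and 772. Rpl7l1, a paralog of Rpl7 that acts in ribosome assembly, was at 120, 137, 124 and 81.4, and Rpl7 at 3539, 4440, 2014 and 3028. Rpl39l, the paralog of Rpl39 known from male germ cells, was at 1.71, 0.09, 0.06 and 0 CPM (up to 0.0591 for a count of 0), against 3361, 2192, 6787 and 3463 for Rpl39. Near-identical copies make some levels uncertain: Rpl36al was counted at 651 CPM in the control beside 1815 for Rpl36a, Rpl9-ps6 at 49.2, Rpl10-ps3 at 49.0 and Rps27rt at 14.3.

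By role, the stalk proteins, which recruit translation factors, differed from each other. Rplp0 (951 coding bases) was at log2 ratios of 0.46, -0.55 and -0.51, Rplp1 at -0.66, -0.01 and 0.10 and Rplp2 at -0.67, 0.58 and 0.27. The Mdm2-binding pair also differed from each other. Rpl5 (891 bases) was at 0.34, -0.75 and -0.57, and Rpl11 (534 bases) at -0.32, -0.62 and -0.18. Of the 16 genes mutated in Diamond-Blackfan anaemia, 8 were lower in the Mll3-labelled library, 4 lower (Rps7, Rpl5, Rpl11 and Rpl15) and 4 higher (Rps26, Rps27, Rps28 and Rps29) in the Mll4-labelled library, and 1 (Rps19) higher and 0 lower in the Mll3/4-labelled library. Beside these, of all genes 4.23% were lower in the first library, 15.4% lower and 13.4% higher in the second, and 14.1% higher and 22.7% lower in the third. Their median log2 ratios were -0.55, 0.04 and -0.02, beside -0.48, -0.18 and -0.14 for all 80 genes.

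The ribosomal genes Fau and Rack1, outside the symbol rule, lay among the members. Fau, a short gene that encodes a small subunit protein fused to a ubiquitin-like part, was at log2 ratios of -0.69, 0.41 and 0.06. Rack1, a scaffold on the small subunit and a longer gene, was at 0.39, -0.59 and -0.37.

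The genes that build ribosomes differed from the genes of ribosomal proteins in the Mll3/4-labelled library. Of 33 listed assembly factors and RNA polymerase I components 31 were over the minimum, and 22 were lower there and 0 higher, with a median log2 ratio of -0.74, while 22.7% of all genes were lower. In the Mll3-labelled library 1 (Nop10) was lower and 0 higher (median 0.10). In the Mll4-labelled library 3 were lower (Nhp2, Nip7 and Ubtf) and 3 higher (Ddx21, Wdr43 and Taf1d, median -0.04), but 21 were lower and 1 higher among cells of 5000 to 20000 UMIs. Wdr12, which acts in large subunit assembly, was at 144 CPM in the control, 154 with the Mll3 label, 101 with the Mll4 label and 40.9 with the Mll3/4 label. The nucleolar protein Rrp1b was at 54.2, 58.1, 37.7 and 18.8. Polr1b, a subunit of RNA polymerase I, was at 19.9, 24.0, 15.5 and 7.90. Fibrillarin (Fbl), the methyltransferase that modifies rRNA, was at 248, 291, 180 and 145. The 1 listed gene above the control in the Mll3/4-labelled library was Ubtf, a factor of rRNA transcription, at 0.15. The count in that library was 18 of 31 with TMM or median-of-ratios scaling and 21 or 22 in the other alternatives. The B-lineage markers and low stem cell markers of that library moved with this result, and their part in it was not tested. Within the Mll3-labelled library the list's median was -0.12 in B-lineage-marker-high against other cells, beside -0.14 for all genes.

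The 16 other TOP mRNAs, mainly translation factors, had median log2 ratios of 0.26, -0.36 and -0.35, with 0, 5 and 4 genes lower and 0 higher. Beside them 4.23%, 15.4% and 22.7% of all genes were lower. Within this list the rank correlation with coding length was -0.22, 0.85 and -0.24, of the other sign than in the ribosomal protein genes with the Mll3 and Mll4 labels. Lower in the Mll4-labelled library were Tpt1 at -0.88, Eef1d at -0.84, Naca at -0.70, Eef1b2 at -0.66 and Npm1 at -0.60. Lower in the Mll3/4-labelled library were Pabpc1, the poly(A)-binding protein, at -0.99, Npm1 at -0.91, Eef1b2 at -0.70 and Nap1l1 at -0.60. Of 78 mitochondrial ribosomal protein genes 74 were over the minimum, and their medians were 0.15, -0.34 and -0.29, with 4, 8 and 9 lower and 0, 2 and 1 higher, beside 4.23%, 15.4% and 22.7% of all genes lower and 3.92%, 13.4% and 14.1% higher. The 4 were Mrps18c, Mrpl33, Mrps21 and Mrpl52. Of these, Mrpl33 and Mrps21 were the 2 higher in the Mll4-labelled library (1.01 and 0.79) and Mrps21 the 1 in the Mll3/4-labelled (0.86). In the mitochondrial list the rank correlation with coding length was 0.58, 0.02 and -0.30. With the Mll3 and Mll3/4 labels it thus had the sign found in the cytosolic ribosomal protein genes. Of 10 regulators of ribosome production 7 were over the minimum. Mycn was at 28.1 CPM in the control, 68.9 with the Mll3 label, 15.3 with the Mll4 label and 0.93 with the Mll3/4 label. Myc was at 112, 121, 110 and 73.4, and Larp1 at 104, 107, 114 and 72.1.

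Comparisons between cells of 1 library share its preparation and sequencing, and each was made in the libraries named with it. Cells high in markers of other types were left out, except where they are themselves compared with the rest. Cells high in 16 G2M-phase transcripts (at least 0.2% of UMIs) had a lower ribosomal protein share than the remaining cells in all 4 libraries. The shares were 27.2% against 31.3% in the control library, 23.6% against 27.6% in the Mll3-labelled, 28.7% against 31.2% in the Mll4-labelled and 21.9% against 29.1% in the Mll3/4-labelled library. As log2 ratios these were -0.20, -0.23, -0.12 and -0.41. With the cells of other types kept in, the direction turned in the Mll4-labelled library, where the median share per cell was 28.8% in G2M-high and 25.2% in the remaining cells. Of the 80 genes, 75 were below 0 in all 4 libraries, beside 28.5% of all genes, and 0 were above 0 in all 4, beside 28.3%. The exceptions were Rps27l, Rpl7l1, Rpl41, Rps2 and Rpl22l1. Rpl10, which completes the large subunit, was at -0.36, -0.36, -0.12 and -0.71, and Rps27 at -0.38, -0.38, -0.28 and -0.63. G2M-high cells were deeper, with a median of 23134 against 12540 UMIs in the control library. Among cells of 10000 to 20000 UMIs the log2 ratios were -0.24 in the control, -0.27 in the Mll3-labelled and -0.73 in the Mll3/4-labelled library, with 78, 80 and 79 genes below 0, and the Mll4-labelled library had too few such cells.

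Between surface gates the differences were small. The HSC gate against the MPP3 gate gave log2 ratios of the sum of 0.06 in the control, 0.10 with the Mll3 label, 0.15 with the Mll4 label and -0.03 with the Mll3/4 label. Of the 80 genes 7 were above 0 in all 4 libraries, beside 21.5% of all genes, and 4 below (Rpl8, Rpl29, Rpl41 and Rps2), beside 16.9%. Against the MPP4 gate the ratios were 0.03, 0.10, 0.19 and -0.07, with 6 genes above 0 in all 4 libraries, beside 22.4% of all genes, and 2 below (one of them Rps27l), beside 9.98%. With cells of 10000 to 20000 UMIs the control value against the MPP4 gate was -0.01. Rps27l was lower in the HSC than in the MPP3 gate, at -0.35, -0.20 and -0.55, in the first 3 libraries and at 0.00 in the Mll3/4-labelled library. Rps14, a small subunit protein lost in the 5q- syndrome, was higher, at 0.23, 0.30 and 0.48, and at 0.01 in the Mll3/4-labelled library. Rpl22l1 was higher in the HSC than in the MPP4 gate, at 0.23, 0.39, 0.54 and 0.02. These genes were named after their values were seen.

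Cells that expressed lineage markers differed in single genes more than in the sum. Cells high in granulocyte-monocyte markers (225, 225 and 1021 cells) against the others had log2 ratios of the sum of -0.02 in the control, -0.07 in the Mll3-labelled and -0.05 in the Mll4-labelled library. Below 0 in all 3 were 42 genes, beside 46.2% of all genes, and above 0 were 16, beside 27.5%. The median log2 ratio of the 80 genes was -0.01, -0.05 and -0.04, and that of all genes -0.07, -0.06 and -0.05. Rps27l was at 0.47, 0.36 and 0.74 in these contrasts and Rps14 at -0.33, -0.33 and -0.46. B-lineage-marker-high cells, 16 in the control and 169 in the Mll3-labelled library, had lower ribosomal protein shares than the others, at -0.23 and -0.21. Of the 80 genes 67 were below 0 in both, beside 48.1% of all genes, and 8 above, beside 33.2%. The median log2 ratio of the 80 genes was -0.21 and -0.23, and that of all genes -0.14 in each. Rps27l was again higher in them, at 0.42 and 0.41, and Rps14 lower, at -0.60 in each. Rps27l was thus higher in granulocyte-monocyte-marker-high and in B-lineage-marker-high cells than in the other cells, in each library in which the contrast was made. The B-lineage contrast was not made in the Mll4-labelled library, which had 15 marker-high cells with cells of other types kept in.

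**Figure D5:**
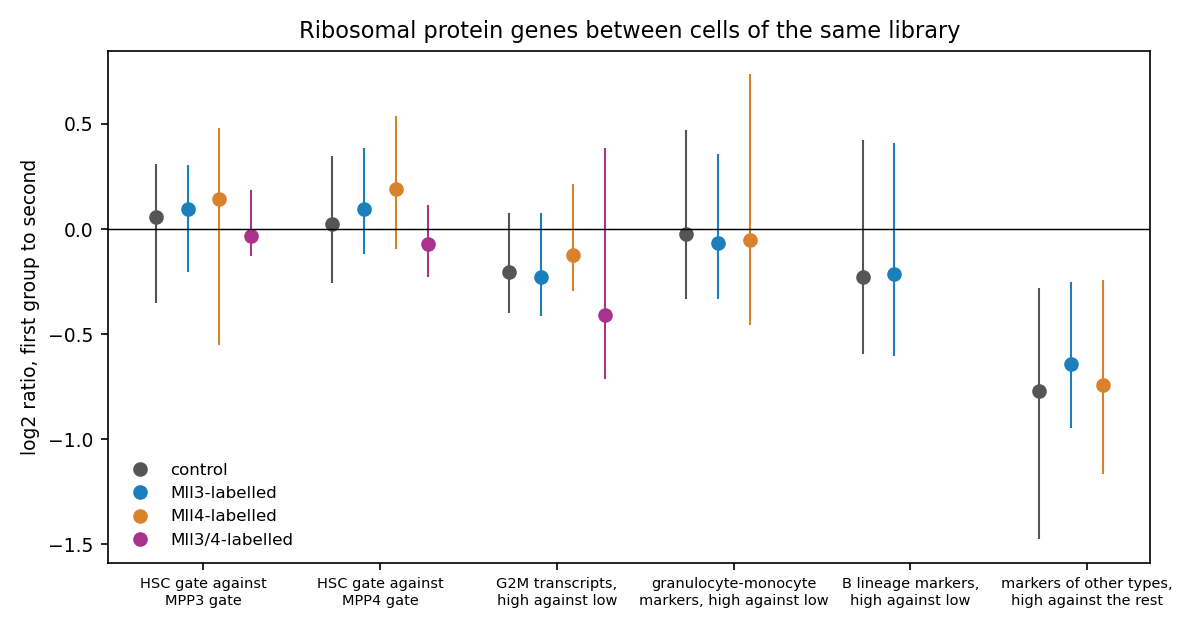
Log2 ratio between cells of the same library (vertical axis) for 6 contrasts (horizontal axis), with the summed level of the 80 genes as a point and the range over the genes as a line. G2M-high cells and cells high in markers of other types lie below 0 in each library shown, down to -0.41 and -0.77.

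In the contrasts within a library, cells high in markers of other types had the lowest summed share, but this class was mixed. Against the rest the log2 ratio of the sum was -0.77 in the control (70 cells), -0.64 in the Mll3-labelled (126 cells) and -0.74 in the Mll4-labelled library (1706 cells). All 80 genes were below 0 in the 3 libraries, beside 53.3% of all genes, and 0 were above, beside 7.42%. The median log2 ratio of the 80 genes was -0.79, -0.65 and -0.77 in these libraries, and that of all genes -0.73, -0.46 and -0.22. In the control the 80 genes were thus little lower than all genes, and the gap was widest in the Mll4-labelled library. In the Mll4-labelled library the median share per cell was 16.9% in 782 mast-marker-high cells and 15.2% in 749 macrophage-marker-high cells, against 29.1% and 29.2% in the cells below each cut. Their median depths were 5737 and 8877 UMIs per cell. The median share there was 13.1% in 201 cells high in antibody-secreting-cell markers and 26.9% in 45 high in T or innate lymphoid markers. These were 12.2% (34 cells) and 26.4% (15) in the control and 6.60% (32) and 23.3% (77) in the Mll3-labelled library. Cells below the cuts were at 27.7% to 28.1%, 30.6% and 26.7% in the Mll4-labelled, control and Mll3-labelled libraries. Erythroid-marker-high cells, a list outside this class, were at 11.2% in the Mll4-labelled library (34 cells). All cells of other types together had a median of 7482 UMIs against 30636 in the rest of that library, but 17415 against 14433 in the control and 16094 against 15375 in the Mll3-labelled library. The relation of share and depth differed with and without them. The rank correlation of share and UMIs per cell was -0.41 in the control, -0.42 with the Mll3 label, 0.45 with the Mll4 label and 0.28 with the Mll3/4 label, and in the Mll4-labelled library it was -0.11 without them. Among cells of 10000 to 20000 UMIs and without other types the median share was 31.5% in the control, 27.9% with the Mll3 label, 33.0% with the Mll4 label and 29.3% with the Mll3/4 label. The order of the Mll4-labelled library and the control turned with depth: among cells of 5000 to 10000 UMIs it was at 25% against 32.1%, and among cells of 3000 to 5000 UMIs at 17.4% against 29.5%.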

How the data were processed

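CITE-seq libraries (10x 3′ gene expression with 6 antibody tags) of 4 samples, 1 per genotype, were analysed. The deposited values are counts: whole-number UMI counts per gene and cell for 32285 genes, made by the authors with Cell Ranger 6.1.1 on mm10, per the submitters' processing notes. Each counted molecule gives a tag near its 3′ end, so levels were not divided by length, and near-identical copies can split or lose reads. Levels of different genes are set side by side in places, whereas each log2 ratio compares the same gene or sum between libraries or cell groups.

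Cells with at least 1000 detected genes and at most 10% mitochondrial UMIs were kept, 7274, 6101, 4793 and 4748 of 7682, 6560, 7702 and 5136 barcodes. No doublets were removed. Scrublet (in scanpy) called 3, 3, 171 and 1 cells, which is too few to be used in all but the Mll4-labelled library. Removing its top scores in every library was an alternative. For each library, gate or marker class the UMIs of its cells were added up, and a level is UMIs per 1000000 gene UMIs (CPM). Log2 ratios were taken after adding 0.5 UMI. Exact 95% intervals cover counting error only. No p-value was computed. Surface gates came from Gaussian mixtures fitted to centred log antibody counts over all libraries. Marker-high cells hold at least 0.2% of their UMIs in a list. Share per cell was also computed after thinning each cell to 3000 UMIs, which left out 14, 17, 134 and 33 cells and gave medians of 30.6%, 26.7%, 27.9% and 26.3%.

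Lengths and coordinates are from GENCODE M21, built on GRCm38, the assembly of mm10, and 32158 gene IDs matched. The genes named are, for each deleted library, the 5 highest and 5 lowest ratios, the 5 highest levels in the control, the genes nearest the minimum, paralog pairs, the stalk, Rpl5 and Rpl11, the Diamond-Blackfan genes and the genes behind counts of 5 or fewer. Others were named after their values were seen. A few genes that this rule names are not reported here. The members and lists were chosen with earlier results of these data known. The lists of other cell types were trimmed after their values were seen. Alternatives were TMM factors (edgeR 4.0.16, R 4.3.3), median of ratios, a total without mitochondrial and ribosomal protein genes, looser and stricter cell filters, equal weight per cell, depth windows, other cell sets, other gate thresholds, a fold of 2 and minimums of 5 and 100. Ratio intervals and counts were tested on simulated data. The analysis used numpy 2.4.6, scipy 1.17.1, pandas 2.3.3, scikit-learn 1.9.0 and scanpy 1.11.5.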

Additional observations from a re-analysis of the deposited data

Results flagged for a closer look

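The summed ribosomal protein level of the HSC gate relative to the MPP3 gate had opposite signs in the control and Mll3/4-labelled libraries, at 0.056 and -0.035 on the log2 scale. Relative to the MPP4 gate it was 0.026 in the control and -0.073 in the Mll3/4-labelled library. These differences were not tested, since there was 1 library each. The HSC gate of the Mll3/4-labelled library held 201 cells, with Cd79a at 3584 CPM, against 1693 cells and 0.79 in the control, and the part of B-lineage transcripts in the difference was not tested.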

How the results depend on the processing

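No paired analysis was possible because each genotype has 1 library. Values stand in the order Mll3-, Mll4- and Mll3/4-labelled, and causes of the moves were not tested. The summed log2 ratio (-0.20, -0.09 and -0.14) was -0.31, 0.031 and -0.028 with TMM, -0.29, 0.023 and -0.023 with median of ratios and -0.28, -0.14 and -0.20 with a total without mitochondrial and ribosomal protein genes. It was -0.20, -0.091 and -0.14 with the looser and -0.21, -0.048 and -0.13 with the stricter cell filter, -0.20 and -0.089 (Mll3- and Mll4-labelled) with Scrublet's top scores removed, and -0.20, -0.27 and -0.21 with equal weight per cell. Among cells of 5000 to 20000 UMIs it was -0.19, -0.43 and -0.19, without cells high in markers of other types -0.20, 0.0070 and -0.14, among cells low in G2M transcripts -0.19, -0.17 and -0.10, and with gates weighted to control shares -0.24, -0.043 and -0.15. With gate thresholds set per library the HSC gate was at -0.18, 0.053 and -0.24, MPP2 at -0.16, 0.071 and -0.10, MPP3 at -0.23, -0.021 and -0.12 and MPP4 at -0.25, -0.19 and -0.11, and MPP1 gave no value, with 95 cells in the Mll4-labelled library.

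Of the 80 genes, those lower in the Mll4-labelled library (22) were 11 with TMM, 13 with median of ratios, 14 without other types and 39 among cells of 5000 to 20000 UMIs. Those lower in the Mll3/4-labelled library (4) were 1 with TMM and with median of ratios, 7 with the reduced total and 8 with equal weight, and those higher (2) were 1 with the reduced total, the stricter filter, equal weight and low-G2M cells. At a fold of 2, 0 were lower in any library, and 6 were higher in the Mll4- and 1 in the Mll3/4-labelled library. In the Mll4-labelled library TOP mRNAs (5 lower) had 3 lower with TMM, median of ratios or without other types and 10 among cells of 5000 to 20000 UMIs. Assembly factors there (3 lower) had 0 lower with TMM and median of ratios, 1 without other types, 7 in low-G2M cells, 10 with equal weight and 21 lower and 1 higher among cells of 5000 to 20000 UMIs. Mitochondrial ribosomal proteins there (8 lower) had 1 with TMM, median of ratios or without other types, 13 with the reduced total and the stricter filter, 20 in low-G2M cells, 28 with equal weight, and 56 lower and 0 higher among cells of 5000 to 20000 UMIs. In the Mll3/4-labelled library (9 lower) they had 4 with TMM and median of ratios and 16 with the reduced total.

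Among cells of 10000 to 20000 UMIs, chosen after seeing the data, the HSC against the MPP3 gate was at 0.024 in the control and 0.094, 0.26 and -0.053 in the deleted libraries, and against the MPP4 gate at -0.0088, 0.13, 0.30 and -0.15. G2M-high against low cells were at -0.24 in the control and -0.27 and -0.73 in the Mll3- and Mll3/4-labelled libraries, and with a share of 0.4%, also chosen after seeing the data, at -0.19, -0.22, -0.12 and -0.46 in the 4 libraries. Of 1386 values of 42 named genes under the alternatives, 1316 kept their side of 1.5-fold, 41 passed it and 29 no longer did. The sign changed in 59, of which 0 were past 1.5-fold as reported.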
